A study of Homo sapiens with 6 samples.

Results

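The genes described here are 10 components of the MHC class II system: HLA-DMA and HLA-DMB, HLA-DOA and HLA-DOB, HLA-DRA, HLA-DPA1, HLA-DPB1 and HLA-DQB1, the invariant chain CD74 and the coactivator CIITA. They were found on the arrays as every probe set whose platform annotation gives one of these names as its only symbol, which gave 29 of 54613 probe sets, for 10 of the 19775 genes so named. Of the 29, 27 were bright enough to be tested, among 32768 tested in all. The 2 that were not are dim probe sets of HLA-DOA and CIITA. Mutated BCWM1 cells (3 samples) were compared with parental BCWM1 cells (3 samples). BCWM1 is an established human line from Waldenström macroglobulinemia, a lymphoma of IgM-secreting B cells and plasma cells. According to the series title the mutated cells carry the change C1013G in CXCR4, the chemokine receptor for CXCL12, and the labels name no other allele or agent. The sources used here do not say how those cells were obtained, whether they are 1 clone, or whether replicates are separate cultures, so the p-values rest on a spread that may be purely technical.

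MHC class II molecules carry peptides of endosomal origin to the surface of B cells for display to CD4+ T cells. The alpha and beta chains assemble in the endoplasmic reticulum with the invariant chain, a fragment of which, CLIP, stays in the groove until HLA-DM removes it and edits the peptides that replace it. HLA-DO, made mainly in B cells, binds HLA-DM and restrains it. CIITA, which binds no DNA itself, is recruited to class II promoters by an assembly of RFX, CREB and NF-Y proteins, and it is shut off when B cells become plasma cells.

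In mutated cells both chains of the peptide editor HLA-DM were lower, and so were the brightest probe sets of both chains of its inhibitor HLA-DO and of CIITA. The brightest probe sets of HLA-DRA, HLA-DPA1, HLA-DPB1, HLA-DQB1 and CD74 did not pass the test. Over the 27 tested probe sets 9 fell, 1 rose and 17 did not pass, while of all 32768 probe sets tested 16.6% fell and 30.9% rose (limma with Benjamini-Hochberg adjustment, adjusted p under 0.05). The shares over all probe sets depend on normalization. With quantile normalization 47.5% of them passed, as in the main setting, but 50.1% of those were higher, against 65.1%. Of the members 9 then fell and 0 rose. The 3 mutated values all lay below the 3 parental values in 12 of the 27 and all above them in 1, beside 21.4% and 36.3% of all tested probe sets. The median log2 change of the 27 was -0.08, beside 0.06 over all tested probe sets. In the remainder of the text a log2 change is the difference in log2(intensity + 16), mutated minus parental, on which scale the changes of dim probe sets are understated. The arrays measure RNA of a whole culture, so that fewer cells of a kind and less RNA per cell cannot be told apart.

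**Figure D1:**
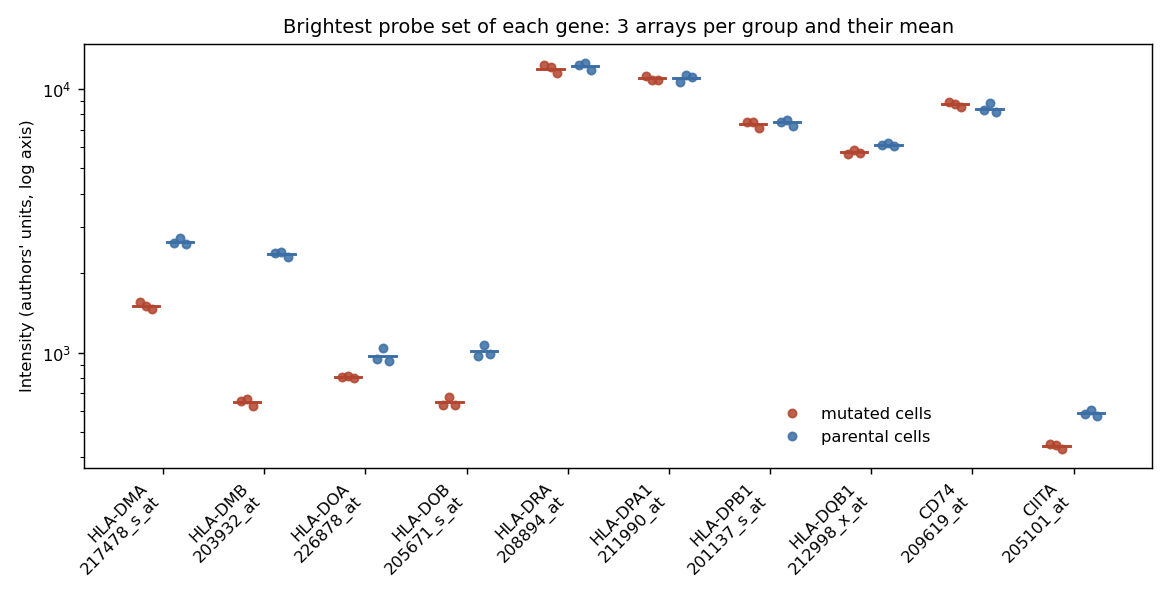
Intensity on each of the 3 mutated (left) and 3 parental (right) arrays for the brightest probe set of each gene, with the group mean as a bar, on a log axis. HLA-DMB averaged 649 in mutated and 2362 in parental cells, while the points of HLA-DRA, HLA-DPA1, HLA-DPB1 and CD74 overlap between groups; levels of different probe sets are not comparable with each other.

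HLA-DMB encodes the beta chain of HLA-DM and showed the largest change of the 10 genes. Its probe set 203932_at read 654, 669 and 625 in mutated cells, against 2382, 2397 and 2307 in parental cells. No mutated value came near the parental range, and the means were 649 ± 22.2 and 2362 ± 48.2 (SD, n = 3 each). The log2 change was -1.84 (95% confidence interval -1.96 to -1.72, adjusted p = 1.3e-06, limma), or 0.28 times the parental level on that scale. Of 13644 genes tested, 69 (0.506%) had a fall at least this large, HLA-DMB included.

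HLA-DMA encodes the alpha chain that pairs with it. Its probe set 217478_s_at read 1556, 1501 and 1459 in mutated cells, against 2608, 2715 and 2588 in parental cells, so the groups did not overlap. The log2 change was -0.80 (95% confidence interval -0.92 to -0.68, adjusted p = 4.7e-05, limma). Each HLA-DM gene is measured by 1 probe set, so no other probe set of the same gene can be set beside either value.

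The probe sets of the 2 chains of the heterodimer did not change by the same amount. Taken within each array, the log2 ratio of HLA-DMB over HLA-DMA was -1.23, -1.15 and -1.20 in mutated cells, against -0.13, -0.18 and -0.16 in parental cells. The ratio itself has no meaning as a ratio of molecules, since probe sets differ in brightness. Its difference between groups, -1.04, shows unequal change of the 2 probe sets. Whether the 2 transcripts changed unequally cannot be told from 1 probe set each. The 2 groups were fully separated, which gives an exact two-sided permutation p = 0.10, the smallest that 3 samples against 3 allow (0.10 after adjustment over the 3 ratios computed).

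HLA-DO, the B cell inhibitor of HLA-DM, was lower as well. HLA-DOB, its beta chain, read 633, 677 and 633 on 205671_s_at in mutated cells, against 970, 1072 and 988 in parental cells. All 3 mutated values lay below all 3 parental ones, with a log2 change of -0.63 (95% confidence interval -0.77 to -0.48, adjusted p = 2.9e-04, limma). The other HLA-DOB probe set, 1554984_a_at, was dim, averaging 50.4 ± 11.9 in mutated and 47.1 ± 4.54 in parental cells (SD, n = 3 each), and did not pass.

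HLA-DOA, the alpha chain, showed a smaller change. Its brightest probe set 226878_at read 807, 815 and 802 in mutated cells, against 949, 1036 and 928 in parental cells. These groups did not overlap either, and the log2 change was -0.26 (95% confidence interval -0.40 to -0.12, adjusted p = 0.010, limma). Of the other 4 HLA-DOA probe sets, 3 were tested, had means under 90 in both groups and did not pass, with log2 changes from -0.27 to 0.07.

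The brightest probe sets of HLA-DMB and HLA-DOB did not fall by the same amount. The log2 ratio of HLA-DOB over HLA-DMB was -0.05, 0.02 and 0.02 in mutated cells, against -1.28, -1.15 and -1.21 in parental cells. It was thus higher by 1.21 in mutated cells, with no overlap (exact two-sided permutation p = 0.10, the smallest possible, and 0.10 adjusted). With each gene's tested probe sets averaged, in place of the brightest one, the difference was 1.56, as the dim HLA-DOB probe set then counts as well.

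**Figure D2:**
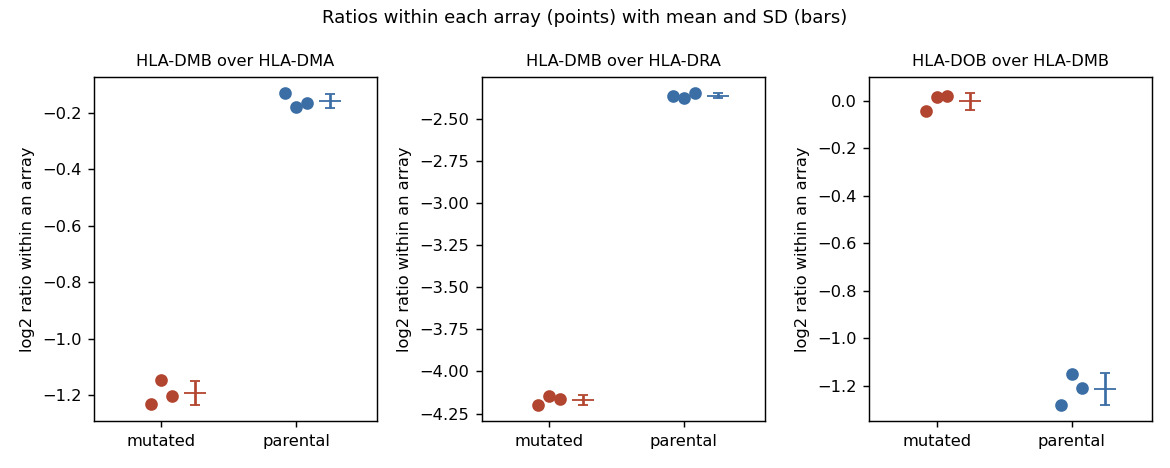
Log2 ratio of the brightest probe sets of 2 genes within each array, mutated cells left and parental cells right, with mean and SD beside the points (n = 3 each). The mutated and parental points are separated in all 3 panels, by -1.04 for HLA-DMB over HLA-DMA, -1.81 for HLA-DMB over HLA-DRA and 1.21 for HLA-DOB over HLA-DMB.

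The promoters of HLA-DMA, HLA-DMB and HLA-DOB, the members with the largest falls on their brightest probe sets, share a run of letters. RefSeq promoter windows (GRCh38.p14, 250 bases before to 50 after the start) were matched for 8 of the 10 genes, with 2 windows for HLA-DPA1; HLA-DRA and CIITA were not matched. Class II promoters carry an X box, bound by RFX, and a Y box, bound by NF-Y. The windows were searched for an X core, CCNAGNNNC, for a Y core, ATTGG, and for CTGATGATG, each on either strand. These letters were chosen after the windows and the expression values had been seen, so the matches are descriptions. The stretches of 80 bases below start 5 bases before an X core and run along the gene's strand. Capitals mark the X core, its continuation into CTGATGATG where that is present (the 2 share 1 base), and the nearest Y core downstream, written CCAAT where it lies on the other strand. They are shown so that HLA-DMA, HLA-DMB and HLA-DOB can be set beside members that changed less or did not pass.
HLA-DMB: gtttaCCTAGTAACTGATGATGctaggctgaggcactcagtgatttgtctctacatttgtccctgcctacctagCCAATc
HLA-DMA: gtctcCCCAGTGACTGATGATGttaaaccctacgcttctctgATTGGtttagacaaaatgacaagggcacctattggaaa
HLA-DOB: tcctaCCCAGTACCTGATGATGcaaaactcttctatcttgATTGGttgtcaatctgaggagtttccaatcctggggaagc
HLA-DOA: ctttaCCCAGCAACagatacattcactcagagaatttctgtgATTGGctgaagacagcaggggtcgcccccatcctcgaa
HLA-DQB1: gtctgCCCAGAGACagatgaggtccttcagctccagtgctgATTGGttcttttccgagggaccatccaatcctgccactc
CD74: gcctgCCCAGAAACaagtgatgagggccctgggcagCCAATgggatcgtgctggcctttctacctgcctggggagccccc
HLA-DPA1: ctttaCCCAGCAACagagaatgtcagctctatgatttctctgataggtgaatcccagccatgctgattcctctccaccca

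All 7 lie on the minus strand: HLA-DMB at chr6:32941045-32941124, HLA-DMA at chr6:32953139-32953218, HLA-DOB at chr6:32817061-32817140, HLA-DOA at chr6:33009621-33009700, HLA-DQB1 at chr6:32666707-32666786, CD74 at chr5:150412920-150412999 and HLA-DPA1 at chr6:33073677-33073756. Each lies wholly upstream of the gene's start as RefSeq places it. CTGATGATG occurred in 3 of the 9 member windows, those of HLA-DMA, HLA-DMB and HLA-DOB, and in 95 of all 35116 windows (0.271%). As the run was picked with these member windows in view, its count among them cannot be weighed against that share. In HLA-DMA, HLA-DOB, HLA-DOA, HLA-DQB1 and CD74 a Y core followed the X core after 28, 26, 28, 27 and 22 bases. In HLA-DMB the nearest Y core lay 60 bases on, and the shown HLA-DPA1 window held none. HLA-DPB1 and the other HLA-DPA1 window, which are not printed above, had no Y core downstream of the X core. An X core followed by a Y core after 5 to 30 bases was found in 5 of the 9 member windows and in 4.18% of all windows, while the X core alone was in 64.4% and the Y core alone in 34.6%. Of 27 other tested genes with CTGATGATG in their window, 9 fell and 8 rose (33.3% and 29.6%), beside 19.0% and 30.6% of the 10951 tested genes with a window. Their median log2 change was -0.08, beside 0.04. Whether the run has any part in the changes was not tested.

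**Figure D3:**
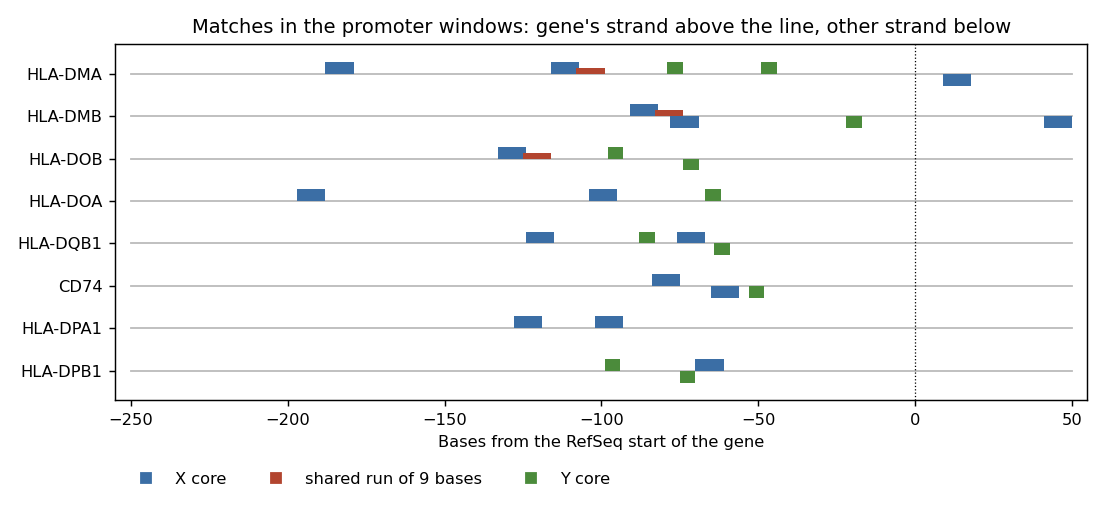
Positions of the X core, the Y core and the run of 9 bases shared by HLA-DMA, HLA-DMB and HLA-DOB in the promoter windows of 8 genes, in bases from the RefSeq start; marks above a line are on the gene's strand and marks below it on the other. Only exact matches are drawn. In the HLA-DMB row the nearest exact Y core stands 60 bases after the X core, against 26 to 28 bases in the HLA-DMA, HLA-DOB, HLA-DOA and HLA-DQB1 rows.

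For the chains that present peptide, HLA-DQB1 apart, most log2 changes were close to 0. HLA-DRA, the nearly invariant alpha chain of HLA-DR, read 12294, 12080 and 11479 on 208894_at in mutated cells, against 12369, 12515 and 11802 in parental cells. The groups overlapped, and the log2 change was -0.03 with a 95% confidence interval from -0.16 to 0.09 (adjusted p = 0.64, limma). Its other probe set, 210982_s_at, gave -0.03 with an interval from -0.16 to 0.10. The log2 ratio of HLA-DMB over HLA-DRA within an array differed by -1.81, mutated minus parental (exact two-sided permutation p = 0.10, the smallest possible, and 0.10 adjusted).

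HLA-DPA1, the alpha chain of HLA-DP, read 11185, 10853 and 10830 on 211990_at in mutated cells, against 10662, 11281 and 11135 in parental cells. The values were interleaved, with a log2 change of -0.01 and an interval from -0.12 to 0.11 (adjusted p = 0.895, limma). On 211991_s_at the mutated values, 5877, 5764 and 5721, lay below the parental 6310, 6377 and 6100, but the log2 change of -0.11 missed the threshold (adjusted p = 0.086, limma). It passed with median centring of each array (adjusted p = 0.020), with the dimmest 60% left out (0.047) and with a trended, robust variance (0.0071). The third HLA-DPA1 probe set, 213537_at, gave 0.10 and did not pass.

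HLA-DPB1, the partner beta chain, read 7484, 7468 and 7097 on 201137_s_at in mutated cells, against 7499, 7637 and 7264 in parental cells. These overlapped, with a log2 change of -0.02 and an interval from -0.14 to 0.10. The 1 probe set of the 27 that rose was the second HLA-DPB1 probe set, 244485_at, which read 155, 142 and 162 in mutated cells, against 126, 113 and 116 in parental cells. Its log2 change of 0.33 (adjusted p = 0.0066, limma) was 0.14 with quantile normalization and then did not pass (adjusted p = 0.13).

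HLA-DQB1, the polymorphic beta chain of HLA-DQ, had 7 tested probe sets, of which 3 fell and 4 did not pass, all with a negative log2 change. On 209480_at mutated cells read 1428, 1283 and 1475, against 1908, 1894 and 1945 in parental cells. That is a separated pair of groups with a log2 change of -0.46 (95% confidence interval -0.61 to -0.30, adjusted p = 0.0015, limma). On 212999_x_at the readings were 1803, 1772 and 1789 in mutated cells, against 2148, 2131 and 2092 in parental cells, a log2 change of -0.25 (adjusted p = 0.0042, limma). The third to fall, 211654_x_at, changed by -0.19 (adjusted p = 0.029, limma). It did not pass once dim probe sets were kept in the fit (0.062) and when any 1 sample other than parental replicate 3 was left out (0.055 to 0.089). The 3 other bright probe sets, all of the suffix _x_at that marks probes shared with related transcripts, had log2 changes from -0.10 to -0.07 and did not pass, so the probe sets of HLA-DQB1 differ. Of these, 212998_x_at, the brightest of the gene, passed with median centring (-0.17, adjusted p = 0.029) and with a trended, robust variance (adjusted p = 0.017), as did 211656_x_at (-0.16, adjusted p = 0.040, and 0.044). Probes for HLA-DQB1 can also bind HLA-DRB transcripts and depend on the allele, which makes its values uncertain.

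The brightest probe sets of these chains differed in how near they lay to the top of the scale. HLA-DRA on 208894_at stood at 76.3% to 82.8% of the highest intensity on its array, HLA-DPA1 on 211990_at at 69.7% to 72.8%, HLA-DPB1 on 201137_s_at at 47.1% to 50.2% and HLA-DQB1 on 212998_x_at at 36% to 40.9%. HLA-DMA stood at 9.64% to 17.5% and CIITA on 205101_at at 2.86% to 3.93%. Whether the small differences of the brightest probe sets owe anything to that position was not tested.

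CD74, the invariant chain that guides class II molecules to endosomes, read 8916, 8804 and 8505 on 209619_at in mutated cells, against 8298, 8811 and 8149 in parental cells. The groups overlapped, and the log2 change was 0.05 with an interval from -0.07 to 0.18 (adjusted p = 0.43, limma). A dim CD74 probe set, 1567627_at, fell to 48.6, 38.3 and 46.2 in mutated cells, against 71.8, 82.4 and 62.3 in parental cells, a log2 change of -0.54 (adjusted p = 0.0057, limma). With a pseudocount of 64 that change was -0.33 (adjusted p = 0.0020), and over all alternatives it ran from -0.69 to -0.33. The remaining one, 1567628_at, gave -0.07 and did not pass, so the 3 CD74 probe sets differ.

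CIITA, the coactivator of class II transcription, fell on its 1 bright probe set, 205101_at. It read 450, 446 and 432 in mutated cells, against 587, 606 and 575 in parental cells. The groups were separate, with a log2 change of -0.40 (95% confidence interval -0.52 to -0.29, adjusted p = 7.5e-04, limma), or 0.76 times the parental level on that scale. The dim probe set 211884_s_at averaged 19.3 ± 4.69 in mutated and 24.7 ± 2.78 in parental cells (SD, n = 3 each) and did not pass (log2 change -0.21, adjusted p = 0.14, limma). It passed without mutated replicate 2 (-0.32, adjusted p = 0.022).

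**Figure D4:**
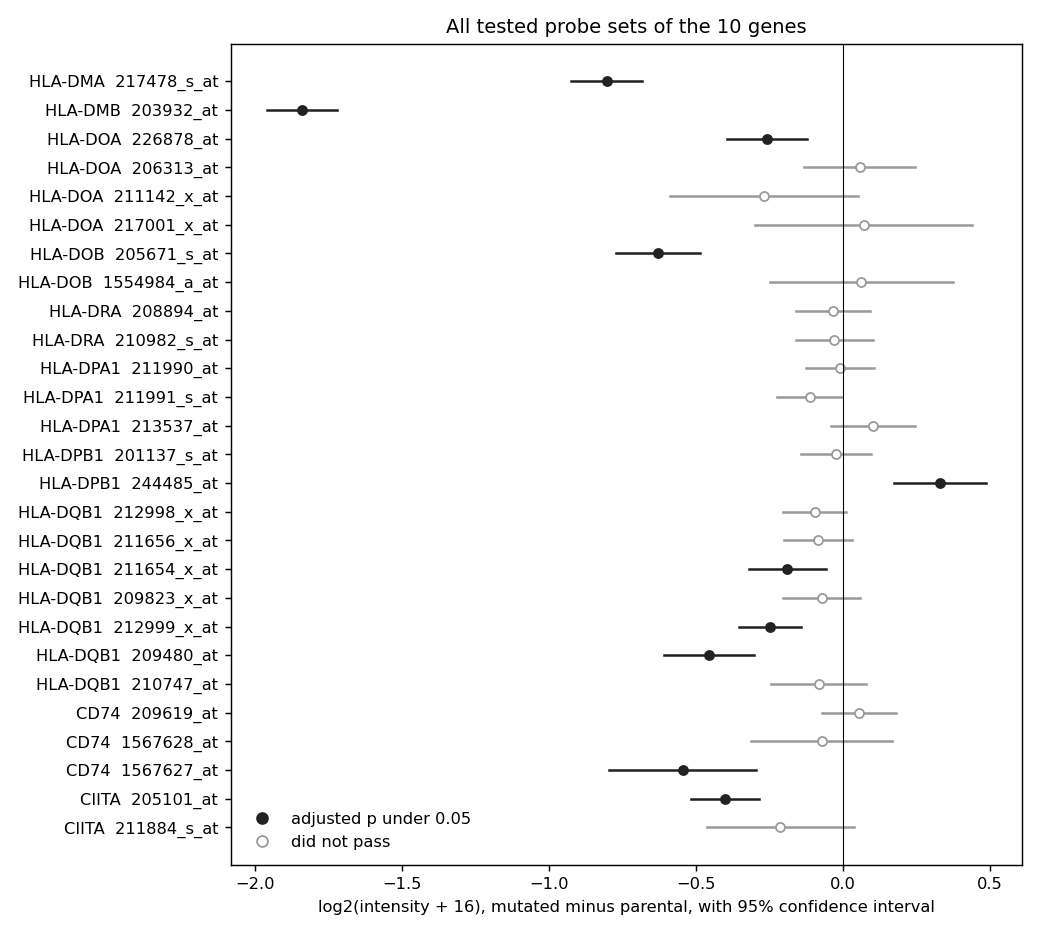
Log2 change (mutated minus parental) with 95% confidence interval for each of the 27 tested probe sets, in the order editor, inhibitor, presenting chains, CD74 and CIITA; filled points passed an adjusted p of 0.05. HLA-DMB (-1.84), HLA-DMA (-0.80) and the brighter HLA-DOB probe set (-0.63) lie farthest to the left, and 1 HLA-DPB1 probe set (0.33) is the filled point on the right.

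The DNA-binding partners and coactivators that work with CIITA were measured in 12 of 12 listed genes, of which 5 fell, 1 rose and 6 did not pass. Over all 13644 genes tested, 18.9% fell and 30.1% rose, and a gene is represented by its brightest tested probe set. RFXAP, a subunit of the RFX complex, averaged 743 ± 27.3 in mutated and 997 ± 28.2 in parental cells (SD, n = 3 each), a log2 change of -0.42 (adjusted p = 9.0e-04, limma). The 2 tested RFXAP probe sets ran from -0.42 to -0.09. CREB1, which binds the X2 part of the X box, changed by -0.47 (adjusted p = 0.0018), although its 7 probe sets ran from -0.47 to 0.24. The methyltransferase gene CARM1 fell (-0.23) and the chromatin remodeller SMARCA4 rose (0.19), with -0.36 to 0.19 over its 8 probe sets. With median centring SMARCA4 no longer passed and the list held 0 rises. RFX5, the DNA-binding subunit of RFX, changed by -0.07 and did not pass. The number of falls in this list was 2 without parental replicate 2, 3 without parental replicate 3 or any 1 mutated sample, and 3 without the filter.

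Of 14 genes listed as regulators upstream of CIITA, 12 were tested, 4 fell, 2 rose and 6 did not pass. Over all genes tested 18.9% fell and 30.1% rose. PRDM1, the plasma cell repressor that silences CIITA, averaged 105 ± 3.32 in mutated and 349 ± 16.4 in parental cells (SD, n = 3 each), a log2 change of -1.59 (adjusted p = 3.6e-06, limma). Its 3 tested probe sets ran from -1.59 to -0.50. JAK1, a kinase of the interferon-gamma receptor, fell by 0.87 on the log2 scale (adjusted p = 3.4e-05), and JAK2, its partner kinase, by 0.66 (adjusted p = 0.0011), though the 3 JAK2 probe sets ran from -0.66 to 0.20. IFNGR1, the ligand-binding chain of that receptor, rose (0.22, adjusted p = 0.010). IRF8 fell (-0.19, adjusted p = 0.022, limma). PAX5 (0.07), IRF4 (-0.02) and IRF1 (-0.08) did not pass on their brightest probe sets. The 2 tested probe sets ran from -0.02 to 0.23 for IRF4 and from -0.08 to 0.34 for IRF1. Neither rise, of IFNGR1 or IRF2, passed with median centring, and the list held 1 rise with the replicate block, as it did without mutated replicate 1, mutated replicate 2 or parental replicate 1.

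Markers of cell identity were counted in the same way, beside 18.9% of all genes tested that fell and 30.1% that rose. Of 5 plasma cell markers 3 fell, TNFRSF17 (-1.89), PRDM1 and SDC1 (-0.87), while XBP1 (-0.10) and IRF4 (-0.02) did not pass. Tested probe sets ran from -0.10 to 0.16 for XBP1 and from -0.02 to 0.23 for IRF4. The intensities of the 5 summed to 8606 to 9405 in mutated and 11970 to 12500 in parental cells. TNFRSF17 alone averaged 911 in mutated and 3417 in parental cells. Levels of different probe sets are not comparable, so each sum here is led by its brightest probe sets. Of 5 tested B cell markers 1 fell, CD22 (-0.41), and 2 rose, CD79B (0.63) and CD79A (0.23). The CD79B probe sets ran from -0.21 to 0.63. PAX5 (0.07) and MS4A1 (-0.03) did not pass. The sums overlapped, 20609 to 21480 in mutated and 20363 to 21081 in parental cells, with MS4A1 the brightest. MS4A1 (CD20) averaged 10233 in mutated and 10425 in parental cells. The 6 monocyte and dendritic cell markers summed to 138 to 149 in mutated and 168 to 190 in parental cells. Of the 4 that passed the brightness filter, CD1C (-0.56, adjusted p = 0.0030) and FCER1A (-0.23, adjusted p = 0.018) fell (limma), and CSF1R (-0.12) and ITGAX (-0.17) did not pass. CD1C was dim, averaging 13.1 in mutated and 26.8 in parental cells, both under the lowest array median, 28.46. CD14, too dim to be tested, averaged 3.44 in mutated and 2.26 in parental cells. The 6 T cell markers summed to 75.8 to 94.6 in mutated and 75.2 to 83.4 in parental cells, with CD3D averaging 8.34 in mutated and 9.68 in parental cells. Of these only CD2 was bright enough to be tested. CD2 averaged 43.9 in mutated and 31.4 in parental cells and did not pass (0.34, adjusted p = 0.11, limma). The part of these markers in the changes of the class II genes was not tested.

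Genes that supply the endosome with peptides or handle class II molecules there were tested in 14 of 16 listed cases, of which 4 rose, 4 fell and 6 did not pass. The shares over all genes tested were 30.1% higher and 18.9% lower. MARCHF8, a ubiquitin ligase that can mark class II molecules for removal, averaged 382 ± 18.04 in mutated and 155 ± 4.95 in parental cells (SD, n = 3 each), a log2 change of 1.22 (adjusted p = 1.2e-05, limma). Its other tested probe set gave 0.01. LGMN, a lysosomal asparagine endopeptidase, averaged 3245 ± 75.6 in mutated and 1960 ± 27.5 in parental cells (SD, n = 3 each), a log2 change of 0.72 (adjusted p = 5.1e-05, limma). The protease gene CTSB fell (-0.65, and -0.67 to -0.24 over its 5 probe sets), as did LAMP1, a lysosomal membrane protein (-0.36, with -0.38 to 0.03 over its 4 probe sets). With median centring the falls in this list numbered 7.

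On chromosome 6 the members other than CD74 and CIITA lie among other genes, so the changes can be set in gene order (RefSeq table of GRCh38.p14, used for order and names). HLA-DMB and HLA-DMA are neighbours, and the next protein-coding gene before them, the proteasome gene PSMB9, changed by -0.04 with an interval from -0.18 to 0.10. On the other side BRD2, a chromatin reader, fell by 0.21 on the log2 scale (adjusted p = 0.022, limma). Between HLA-DOB and HLA-DMB, the peptide transporter gene TAP2 fell by 0.65 (adjusted p = 2.1e-04), while TAP1 (0.06) and PSMB8 (-0.03) did not pass. Of 14 listed neighbours 12 were tested, of which 3 fell, the third being VPS52 (-0.39), 1 rose, the zinc transporter gene SLC39A7 (0.45), and 8 did not pass. Beside these counts, 18.9% of all genes tested fell and 30.1% rose. With quantile normalization 7 of these genes fell, and with probe sets averaged per gene 5. Of all probe sets called, 50.1% were higher with quantile normalization, against 65.1% in the main setting.

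**Figure D5:**
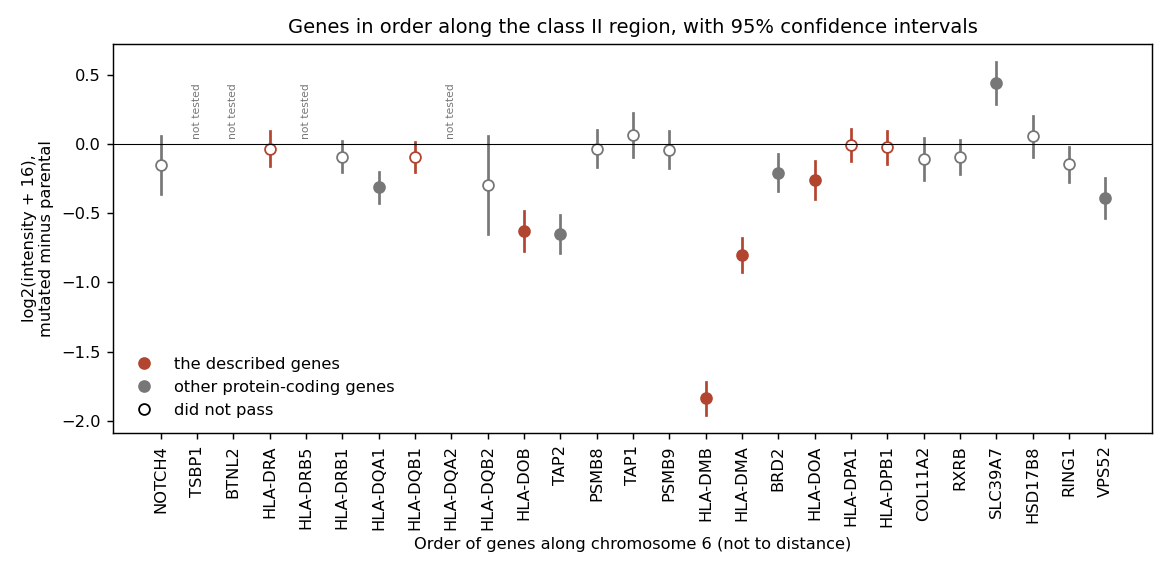
Log2 change (mutated minus parental) with 95% confidence interval for the brightest tested probe set of each protein-coding gene from NOTCH4 to VPS52, in gene order along chromosome 6 and not to distance; open points did not pass. HLA-DMB (-1.84) and HLA-DMA (-0.80) stand side by side, between PSMB9 (-0.04) and BRD2 (-0.21).

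The 5 genes outside the class II group whose 6 log2 values lay nearest to those of HLA-DMB, each set about its own mean, were PYROXD2, CETP, PDGFA, TNFRSF17 and PLAGL1, at Euclidean distances from 0.10 to 0.12. Their log2 changes ran from -1.90 for PDGFA to -1.75 for CETP, the plasma lipid transfer protein gene. With 6 samples in 2 groups this likeness says little beyond a fall of like size.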

How the data were processed

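RNA of 3 mutated and 3 parental BCWM1 samples was measured on 6 arrays, from biotinylated cRNA per the labels. The authors deposited 1 linear intensity for each probe set. Of their summary method, background correction and normalization, the labels state nothing, and they are not given in the sources used. Array medians ran from 28.46 to 31.83, and 2.01% to 2.36% of an array's values equalled 1. Pearson's r across tested probe sets, which are not independent, was 0.994 to 0.996 within and 0.967 to 0.970 between groups. The 6 arrays limit the precision.

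Intensities were transformed as log2(intensity + 16), the dimmest 40% of probe sets by mean over all samples were left out, and 32768 were fitted with limma 3.58.1 in R 4.3.3 (lmFit, eBayes, two-sided, group as the only term), with Benjamini-Hochberg adjustment over all of them and a threshold of 0.05. Confidence intervals are at 95%. The platform annotation gave 1 symbol for 41091 probe sets, of which 41037 were matched by Entrez ID to RefSeq (GRCh38.p14), changing 0 symbols. Some listed genes are not reported here, and SPI1, CTSL, BTNL2 and TSBP1 were too dim to be tested. The procedure was tested on simulated data.

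The text covers every probe set of the 10 members, some of them only in a count or a range. It names up to 4 genes past the threshold with the smallest adjusted p in each of 4 lists, and the 5 probe sets nearest to HLA-DMB. Other list genes were named after their values were seen. Members and lists were chosen with earlier results of these data known, so their counts are descriptions. Alternatives were quantile normalization, median centring, no filter, a filter at 60%, trended and robust eBayes, array weights, pseudocounts of 1 and 64, the replicate number as a block, probe sets averaged per gene, and each sample left out; leaving out probe sets of the suffix _x_at was added after seeing the data. Python 3.11.15 with matplotlib 3.10.9 drew the figures.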

Additional observations from a re-analysis of the deposited data

How the results depend on the processing

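The calls on HLA-DMA, HLA-DMB, the brightest HLA-DOA and HLA-DOB probe sets, CIITA 205101_at, HLA-DQB1 209480_at and 212999_x_at and CD74 1567627_at kept their direction and passed under all 15 alternatives run on single probe sets. HLA-DMB ran from -1.92 to -1.77, HLA-DMA from -0.88 to -0.78 CIITA from -0.48 to -0.37 and CD74 1567627_at from -0.69 to -0.33, its smallest change with a pseudocount of 64. The number of member probe sets that fell was 7 to 12 under all alternatives (8 to 10 with 1 sample left out), and the number that rose was 0 with quantile normalization and 1 otherwise. The median log2 change of all tested probe sets was 0.06, -0.02 with quantile normalization and -0.02 with median centring, and 65.1% of calls were higher against 50.1% and 50.7%.

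With a pseudocount of 64 the differences in ratio were -0.98 for HLA-DMB over HLA-DMA and -1.73 for HLA-DMB over HLA-DRA, and with the mean over probe sets 1.56 for HLA-DOB over HLA-DMB. Median centring gave 0 rises among CIITA's partners, 0 among upstream regulators and 7 falls in antigen processing. Quantile normalization gave 7 falls among neighbours. The mean over probe sets gave 2 rises among the partners and 5 falls among neighbours, and no filter gave 3 falls among the partners. With 1 sample left out the partners had 2 to 4 falls and the upstream regulators 1 to 2 rises.

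Signs turned only in probe sets that did not pass. With quantile normalization HLA-DOA 206313_at gave -0.14 and HLA-DOB 1554984_a_at -0.065. With median centring HLA-DOA 206313_at gave -0.022, HLA-DOA 217001_x_at -0.0081, HLA-DOB 1554984_a_at -0.017 and CD74 209619_at -0.025. With 1 sample left out the ranges crossed 0 for HLA-DOA 206313_at (-0.0052 to 0.12) and 217001_x_at (-0.05 to 0.21), HLA-DOB 1554984_a_at (-0.079 to 0.16), CD74 1567628_at (-0.16 to 0.0051), HLA-DPA1 211990_at (-0.033 to 0.0077) and HLA-DPB1 201137_s_at (-0.043 to 0.0020). HLA-DOA 211142_x_at passed without parental replicate 3 (-0.42). In all of these the cause was not tested.

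Samples share only a replicate number: their deviations from the group means correlated at 0.11, 0.03 and 0.11 for the 3 same-numbered pairs, and at -0.11 to 0.003 for the others. With the replicate number as a block 8 member probe sets fell and 1 rose, HLA-DQB1 211654_x_at no longer passing (adjusted p = 0.056), the upstream regulators had 1 rise, and the ratios kept their values with an exact paired p = 0.25, the smallest that 3 pairs allow.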

Other observations

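Class II genes outside the 10 were measured as well, and were looked at after the values of the 10 were known. Of 12 probe sets with 1 other class II symbol 10 were tested, 4 fell and 0 rose (limma, adjusted p under 0.05), with log2 changes from -0.37 to 0.04. Over all tested probe sets 16.6% fell and 30.9% rose. HLA-DRB4 fell on 209728_at (-0.37, adjusted p = 0.043, limma) and on the dim 215669_at (-0.33). HLA-DQA1, the alpha chain of HLA-DQ, read 6396, 6477 and 6639 on 213831_at in mutated cells, against 8107, 8220 and 7913 in parental cells, a fall of 0.31 on the log2 scale without overlap (adjusted p = 0.0019, limma). Its probe set 236203_at fell as well (-0.24), while 203290_at (-0.07) did not pass. HLA-DRB1, the main beta chain of HLA-DR, read 11012, 10797 and 11111 on 208306_x_at in mutated cells, against 11605, 12057 and 11373 in parental cells, and its log2 change of -0.09 did not pass (adjusted p = 0.17, limma). Of 6 probe sets annotated to several class II genes, 5 were tested, 2 fell and 0 rose. The bright 221491_x_at, annotated to HLA-DRB genes and HLA-DQB1, averaged 2486 in mutated and 3267 in parental cells (-0.39, adjusted p = 0.0017, limma). The other to fall was 212671_s_at (-0.30), annotated to HLA-DQA1 and HLA-DQA2. The rest of those tested, with log2 changes from -0.10 to -0.07, did not pass.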
